A study of Mus musculus with 96 samples.

Results

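Abhd1 and Otof lie 488 kb apart on the mouse chromosome that carries Htt, and both were more abundant in cerebella carrying an Htt knock-in allele than in wild-type cerebella, at each of the 4 CAG lengths studied. They were chosen by name from 39179 genes in the tables because of that difference, so the difference itself is described here and not tested. Both genes were read in all 96 libraries. The libraries whose level went against their genotype label were looked at one by one: there were 5, of which 4 were knock-in and 1 was wild type.

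Otof encodes otoferlin, a large membrane protein of the ferlin family that binds calcium through C2 domains and is needed for transmitter release from the inner hair cells of the ear. In humans, loss of OTOF causes a recessive deafness. Abhd1 encodes a protein with the alpha/beta hydrolase fold, a fold shared by many lipases and esterases. What it acts on in cerebellum is not well established.

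The libraries were mRNA sequencing of cerebellum from mice labelled as strain C57BL/6. Heterozygous Htt knock-ins carried an allele named Q20, Q50, Q92 or Q140 after its CAG length, and wild types came from the cages of the Q20 or of the Q50 mice. Each of these 6 kinds was sampled at 6 and at 10 months, with 4 female and 4 male libraries each, which makes 64 knock-in and 32 wild-type libraries in 24 groups of 4. A knock-in allele carries its repeat in the mouse's own huntingtin gene, so no transgene promoter is involved. Q20 and Q50 were set against wild types of their own cages. Q92 and Q140 had cages of their own, no wild types from those cages were analysed here, and they were set against all 16 wild types of the age. Nothing in the labels ties a library to an animal of its own, so p-values measure the spread between libraries, which may in part be technical. In whole tissue, fewer cells of a type and less RNA per cell cannot be told apart.

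Library totals lay between 29957854 and 39477349 counts with a median of 34251142. The levels of Xist and Ddx3y matched the labelled sex in 96 of 96 libraries. Markers of cerebellar granule neurons (Gabra6, Neurod1, Cbln3, Zic1 and Fat2) summed to a median of 4790 CPM (counts scaled to library size) in knock-ins and 4861 CPM in wild types at 6 months. Fezf2, a marker of cortical projection neurons, was at 0 in 61 libraries, and Pou4f3, a hair cell transcription factor, was at 0 in 86. Htt, summed over both alleles, averaged between 261 and 286 CPM in the 4 knock-in groups at 6 months, against 266 ± 53.8 CPM in wild types of the Q20 cages and 284 ± 27.9 CPM in wild types of the Q50 cages (SD, n = 8 each). At 10 months Htt averaged 303 CPM in Q20, 292 CPM in Q50, 280 CPM in Q92 and 260 CPM in Q140. Wild types of that age averaged 311 CPM in the Q20 cages and 296 CPM in the Q50 cages. Q140 libraries then ran from 236 to 278 CPM and wild types from 260 to 328 CPM, so Q140 was lower on average. No test of Htt is given here. A sum over both alleles does not check the genotype labels.

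In the annotation of mouse build GRCm38 used here (GENCODE M21), Otof (ENSMUSG00000062372) runs on the minus strand of chromosome 5 from 30367062 to 30461932. It is annotated as protein coding with 5 transcripts and lies 4300 kb from Htt. Abhd1 (ENSMUSG00000006638) runs on the plus strand from 30950066 to 30955091, is annotated as a processed transcript and not as protein coding, has 7 transcripts, and lies 488 kb from Otof and 3807 kb from Htt. The build the authors used is not given in the sources used here. Abhd1 overlaps 4239 bases of Preb, which is on the other strand. Whether the counting used strand is not stated, so reads from the overlap cannot be told apart and the Abhd1 counts are uncertain to that extent. The estimated count of Abhd1 was a whole number in 0 of 96 libraries, while that of Otof was whole in 81 of 96.

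At 6 months, Abhd1 ran from 6.88 to 9.99 CPM in Q20 with a median of 7.93. It ran from 2.95 to 9.41 CPM in Q50 with a median of 7.69, from 5.98 to 8.64 CPM in Q92 with a median of 7.24, and from 6.56 to 9.30 CPM in Q140 with a median of 7.56. Wild types of the Q20 cages ran from 1.96 to 3.60 CPM with a median of 2.90, and those of the Q50 cages from 2.50 to 3.78 CPM with a median of 2.94. The knock-in groups overlapped one another over most of their range, and all but 1 of their libraries lay above every wild-type library. That exception, the lowest Q50 library, lay among the wild types.

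The same layout held for Abhd1 at 10 months. Q20 libraries ran from 2.65 to 7.84 CPM (median 7.44), Q50 from 6.31 to 7.49 CPM (median 6.62), Q92 from 6.17 to 8.12 CPM (median 6.99) and Q140 from 6.28 to 8.37 CPM (median 6.75). Wild types of the Q20 cages ran from 2.05 to 2.95 CPM (median 2.37) and those of the Q50 cages from 1.95 to 3.26 CPM (median 2.66). Here the lowest Q20 library was the 1 knock-in library among the wild types.

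Otof at 6 months ran from 15.3 to 20.96 CPM in Q20 (median 16.3), from 6.19 to 19.4 CPM in Q50 (median 16.3), from 13.8 to 18.9 CPM in Q92 (median 16.8) and from 4.29 to 23.9 CPM in Q140 (median 20.2). Its range was 3.40 to 9.42 CPM in wild types of the Q20 cages (median 4.69) and 3.61 to 6.66 CPM in wild types of the Q50 cages (median 4.54). The lowest Q50 and the lowest Q140 library fell into the wild-type range. The highest wild type lay between the classes.

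At 10 months Otof ran from 4.47 to 19.3 CPM in Q20 (median 16.4), from 11.1 to 17.7 CPM in Q50 (median 15.1), from 4.93 to 18.6 CPM in Q92 (median 15.3) and from 15.1 to 20.2 CPM in Q140 (median 17.5). Wild types of the Q20 cages ran from 3.56 to 6.44 CPM (median 4.63) and those of the Q50 cages from 2.90 to 5.03 CPM (median 3.63). Only the lowest Q20 and the lowest Q92 library lay within the wild-type range.

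**Figure D1:**
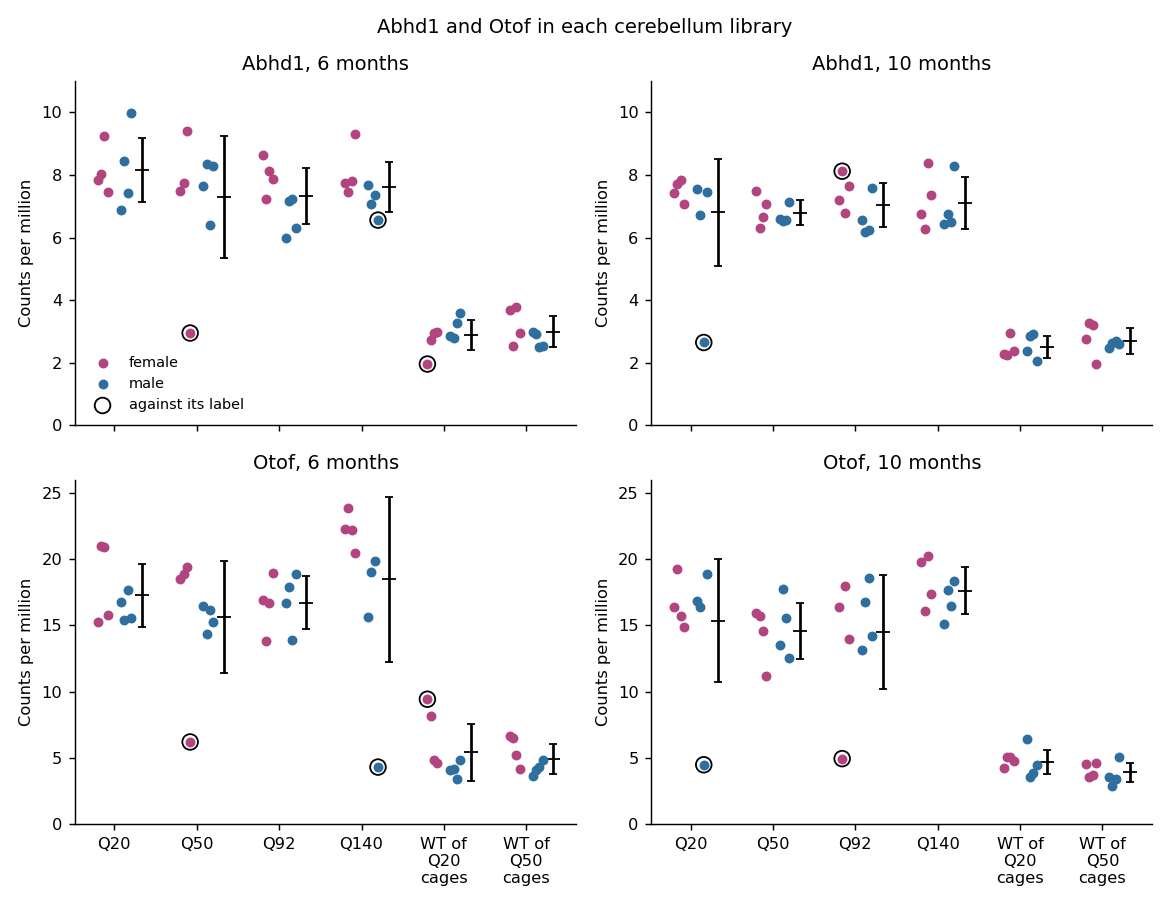
CPM of Abhd1 (top) and Otof (bottom) in every library at 6 months (left) and 10 months (right), with female libraries in pink, male libraries in blue, and the mean and SD of the 8 libraries of a group as a bar beside them. Rings mark the 5 libraries that lie nearer to the median of the other class for at least 1 of the genes, such as Q50 female 4 at 6 months with 2.95 CPM of Abhd1.

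Counted over single libraries, Abhd1 was above the highest wild type in 31 of 32 knock-in libraries at 6 months and in 31 of 32 at 10 months. A count that high was reached by 0.00575% of the 17384 genes measured, at either age. Otof was above the highest wild type in 30 of 32 knock-in libraries at each age, a count reached by 0.0115% of genes at either age. The first share is 1 gene, Abhd1 itself, and the second is 2 genes, the pair itself. Since both genes were picked for this contrast, these shares are given as the background and nothing is read from them.

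On the log2 scale, Abhd1 was higher than in wild types by 1.49 ± 0.14 for Q20, 1.28 ± 0.14 for Q50, 1.31 ± 0.11 for Q92 and 1.37 ± 0.11 for Q140 at 6 months (fitted difference ± SE). At 10 months its differences were 1.44 ± 0.12 for Q20, 1.33 ± 0.12 for Q50, 1.44 ± 0.10 for Q92 and 1.45 ± 0.10 for Q140. These are folds of 2.43 to 2.82. Otof was higher by 1.70 ± 0.20 for Q20, 1.69 ± 0.20 for Q50, 1.72 ± 0.17 for Q92 and 1.83 ± 0.16 for Q140 at 6 months. Its differences at 10 months were 1.72 ± 0.19 for Q20, 1.90 ± 0.19 for Q50, 1.77 ± 0.15 for Q92 and 2.05 ± 0.15 for Q140. These are folds of 3.22 to 4.13. Q92 and Q140 share all 16 wild types of the age with each other and each shares 8 of them with Q20 and with Q50, so those differences are not independent of each other. At an adjusted p under 0.05, the background over 17020 genes at 6 months was 0.0118% for Q20, 0.0118% for Q50, 0.0353% for Q92 and 0.241% for Q140. Over 16947 genes at 10 months it was 0.0118% for Q20, 0.0531% for Q50, 0.0531% for Q92 and 0.443% for Q140. These shares include the pair, and each share of 0.0118% here is 2 genes, the pair itself.

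Choroid plexus markers (Ttr, Folr1, Kl, Clic6 and Kcnj13), which mark the epithelium that makes cerebrospinal fluid, differed between the knock-in alleles at 6 months. All 5 were measured, and their sum ran from 15.7 to 2386 CPM in knock-ins (median 29.3) and from 18.0 to 2371 CPM in wild types (median 802). By allele, the median was 853 CPM in Q20, 268 CPM in Q50, 29.3 CPM in Q92 and 21.7 CPM in Q140. It was 766 CPM in wild types of the Q20 cages and 802 CPM in those of the Q50 cages. Q20 was thus not below the wild types of its own cages. At 10 months the sum had a median of 688 CPM in knock-ins and 646 CPM in wild types. Their part in the differences of Abhd1 and Otof was not tested.

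Levels between genes can be compared only per length, in FPKM, which scales counts to transcript length and library size. Abhd1 had a median of 5.79 FPKM in knock-ins and 2.19 FPKM in wild types at 6 months, and of 5.22 FPKM in knock-ins and 2.01 FPKM in wild types at 10 months. Otof had a median of 2.52 FPKM in knock-ins and 0.681 FPKM in wild types at 6 months, and of 2.40 FPKM in knock-ins and 0.629 FPKM in wild types at 10 months. Abhd1 was thus the more abundant of the pair per length in both classes.

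The comparisons among knock-ins ask whether either gene follows the repeat length, which the choice of the genes did not use directly. The order of the medians changed from gene to gene and age to age. Abhd1 ran Q20, Q50, Q140, Q92 at 6 months and Q20, Q92, Q140, Q50 at 10 months, from high to low. Otof ran Q140, Q92, Q50, Q20 at 6 months and Q140, Q20, Q92, Q50 at 10 months. No step between neighbours within these orders, at most 0.26 on the log2 scale, was larger than the SD of the more variable neighbour. That largest step, of Otof from Q140 to Q92 at 6 months, was set against an SD of 0.81. This SD includes 1 Q140 library against its label. Without that library, Otof averaged 20.5 ± 2.71 CPM in Q140 (SD, n = 7), against 16.7 ± 1.99 CPM in Q92 (n = 8). The step down to the highest wild-type group was 1.28 and 1.30 for Abhd1 and 1.78 and 1.69 for Otof at 6 and 10 months, above the SD each time.

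No trend with CAG length was called. The slope of Abhd1 per 100 CAG was -0.061 ± 0.10 at 6 months (edgeR quasi-likelihood test with Benjamini-Hochberg adjustment over all genes, adjusted p = 0.712) and 0.061 ± 0.090 at 10 months (adjusted p = 0.841). That of Otof was 0.090 ± 0.15 at 6 months (adjusted p = 0.710) and 0.16 ± 0.14 at 10 months (adjusted p = 0.662). The 95% intervals of the slopes reached from -0.27 to 0.14 and from -0.12 to 0.24 for Abhd1, and from -0.21 to 0.39 and from -0.11 to 0.44 for Otof. Over all genes, 0.229% had a called trend at 6 months and 2.06% at 10 months.

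Pairwise, neither gene differed from Q20 past the threshold in any longer allele. Abhd1 in Q140 minus Q20 was -0.10 ± 0.13 at 6 months (interval -0.36 to 0.16) and 0.064 ± 0.12 at 10 months (interval -0.17 to 0.30). Otof in Q140 minus Q20 was 0.070 ± 0.19 at 6 months (interval -0.32 to 0.46) and 0.20 ± 0.18 at 10 months (interval -0.16 to 0.55). The smallest adjusted p of these 4 tests was 0.619, and 0.147% of genes at 6 months and 2.08% at 10 months were called. In Q92 minus Q20 the differences lay between -0.16 ± 0.13 and 0.052 ± 0.12 for both genes and ages (background 0.0118% and 0.224% called). In Q50 minus Q20 they lay between -0.17 ± 0.13 and 0.00021 ± 0.11 (background 0.0118% and 0.153% called). Differences inside these intervals remain compatible with the data, and a difference that was not called is not shown to be absent.

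**Figure D2:**
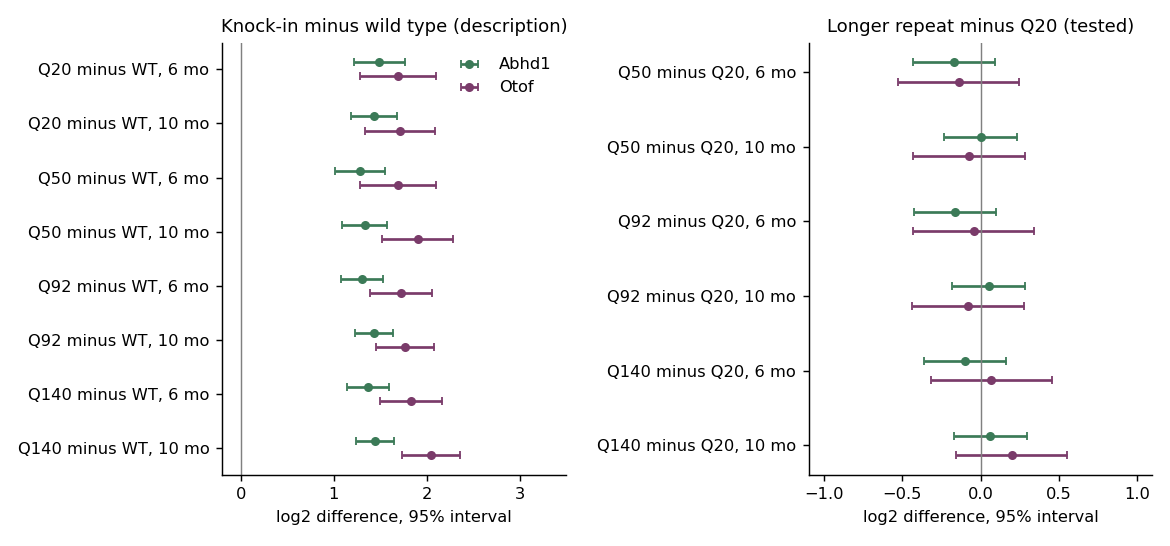
Fitted log2 differences of Abhd1 (green) and Otof (purple) with 95% intervals, on the left for each knock-in allele minus wild type and on the right for each longer allele minus Q20, at 6 and 10 months. The left values lie between 1.28 and 2.05, and all intervals on the right include 0.

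The wild types of the different cages were also set against each other. The labels tie a cage to the knock-in line housed in it, so cage and line cannot be told apart. Abhd1 in wild types of the Q50 cages minus those of the Q20 cages was 0.043 ± 0.14 at 6 months (adjusted p = 0.962 by edgeR) and 0.10 ± 0.13 at 10 months (adjusted p = 0.805). Otof was -0.13 ± 0.21 at 6 months (adjusted p = 0.907) and -0.26 ± 0.20 at 10 months (adjusted p = 0.658). Over all genes, 0.0646% at 6 months and 0.212% at 10 months were called. For Otof at 10 months the medians of these cages lay 0.35 apart on the log2 scale, more than the larger SD of 0.26, while the test did not pass. The Q50 effect minus the Q20 effect, each against its own cages, was -0.21 ± 0.19 and -0.10 ± 0.17 for Abhd1 at 6 and 10 months, and -0.0073 ± 0.28 and 0.19 ± 0.26 for Otof. No gene was called for that interaction at either age (0% of genes).

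Sex and age did not pass the threshold for either gene with all libraries. Otof at 6 months had a median of 18.9 CPM in female knock-ins and 16.3 CPM in male knock-ins, and of 5.84 CPM in female wild types and 4.11 CPM in male wild types. Female minus male was 0.30 ± 0.11 there (interval 0.070 to 0.53, adjusted p = 0.279 by edgeR, 0.946% of genes called). At 10 months it was 0.041 ± 0.11 (adjusted p = 0.829, 5.98% of genes called). Abhd1 had female minus male differences of 0.044 ± 0.077 at 6 months (adjusted p = 0.951) and 0.11 ± 0.069 at 10 months (adjusted p = 0.320). The knock-in effect in females minus that in males was 0.088 ± 0.11 for Abhd1 and -0.23 ± 0.18 for Otof, and 0% of genes were called.

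Between ages, Abhd1 was lower at 10 than at 6 months by similar amounts in both classes. The difference was -0.13 ± 0.062 in knock-ins (adjusted p = 0.102 by edgeR, 27.1% of genes called) and -0.17 ± 0.094 in wild types (adjusted p = 0.207, 9.92% of genes called). Otof had differences of -0.13 ± 0.095 in knock-ins (adjusted p = 0.304) and -0.24 ± 0.15 in wild types (adjusted p = 0.257). Without Q50 female 4 at 6 months, the difference of Abhd1 in knock-ins was -0.17 (adjusted p = 0.0143 by edgeR) and passed. The knock-in effect at 10 months minus that at 6 months was 0.042 ± 0.11 for Abhd1 and 0.11 ± 0.18 for Otof (0% of genes called). Age goes with the numbering of the libraries, so the one cannot be told apart from the other.

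Single libraries that contradicted their label took 3 forms. To place them, each library was given a position on the log2 scale, 0 at the median wild type and 1 at the median knock-in of its age. For the 60 other knock-in libraries the position ran from 0.741 to 1.28 for Abhd1 and from 0.713 to 1.27 for Otof. For the 31 other wild types it ran from -0.299 to 0.263 for Abhd1 and from -0.308 to 0.433 for Otof.

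In 2 knock-in libraries both genes were low. The 4 Q50 females at 6 months had 7.49, 7.73, 9.41 and 2.95 CPM of Abhd1, and 18.5, 18.9, 19.4 and 6.19 CPM of Otof. Female 4 was the low one for both genes, at position 0.0037 for Abhd1 and 0.217 for Otof. The 4 Q20 males at 10 months had 7.55, 6.71, 2.65 and 7.45 CPM of Abhd1, and 16.8, 16.4, 4.47 and 18.9 CPM of Otof. Male 3 was at wild-type level for both genes, at position 0.012 for Abhd1 and 0.019 for Otof. Both libraries had Htt, granule and brainstem marker levels within the range of the other knock-in libraries of their age. Q50 female 4 also lay past all other knock-ins of its age, toward the wild types, in Slc5a1 and Ppp1cb on chromosome 5. On the same kind of scale, set without the libraries against their label, it was at 0.049 for Slc5a1 (other knock-ins at least 0.092). For Ppp1cb it was at -0.71 (other knock-ins at least -0.45). In Atraid, Gm5067 and 5031410I06Rik, also on chromosome 5, it lay within the range of the other knock-ins. Q20 male 3 lay within the other knock-ins for both of these genes.

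In the other 2 knock-in libraries Otof alone was low. The 4 Q140 males at 6 months had 15.6, 19.1, 19.9 and 4.29 CPM of Otof, and 7.68, 7.08, 7.36 and 6.56 CPM of Abhd1. Male 4 was thus below the wild-type median for Otof (position -0.068) while its Abhd1 stayed among the knock-ins (position 0.837). The 4 Q92 females at 10 months had 16.4, 4.93, 17.96 and 13.9 CPM of Otof, and 7.20, 8.12, 6.79 and 7.64 CPM of Abhd1. Female 2 was at position 0.093 for Otof and, as the highest of its group, at 1.16 for Abhd1. That library also stood apart in other genes: its granule marker sum of 2145 CPM was the lowest of 32 knock-in libraries at 10 months, against 3519 CPM in the lowest of the 30 that matched their label. Its choroid plexus sum of 3610 CPM was the highest of the 32, and its Htt level was 153 CPM. The part of these differences in its Otof level was not tested. The Q140 library had a granule marker sum of 4982 CPM and a choroid plexus sum of 23.0 CPM, inside the range of the other knock-ins.

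In 1 wild-type library Otof was high and Abhd1 was not. The 4 females of the Q20 cages at 6 months had 9.42, 8.16, 4.80 and 4.58 CPM of Otof, and 1.96, 2.71, 2.95 and 2.99 CPM of Abhd1. Female 1 was at position 0.545 for Otof and had the lowest Abhd1 level of the 16 wild types. On the scale set without the libraries against their label, it lay past the other wild types, toward the knock-ins, in Slc5a1 and Gm5067. It was at 2.50 for Slc5a1 (other wild types at most 1.12) and at 0.645 for Gm5067 (others at most 0.305). In Atraid, Ppp1cb and 5031410I06Rik it lay within the other wild types. Its brainstem neuron markers summed to 218 CPM, against at most 81.7 CPM in the other 15 wild types of that age, and its granule marker sum of 3584 CPM was the lowest of the 16. Its oligodendrocyte markers summed to 6108 CPM, against at most 5136 CPM in the other 15. Its hair cell markers, nearly all of it Myo7a, were at 29.4 CPM, the highest, against at most 29.1 CPM in the others. Its striatal markers, at 97.7 CPM, were the lowest, against at least 114 CPM. Female 2, with 8.16 CPM of Otof, was not among the 4 highest wild-type brainstem sums of that age. In knock-ins at 10 months the highest brainstem sum was 211 CPM, in Q50 female 2 with 15.7 CPM of Otof. The next was 101 CPM, in Q92 female 2 with 4.93 CPM of Otof. What part the differences of wild-type female 1 had in its Otof level was not tested.

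**Figure D3:**
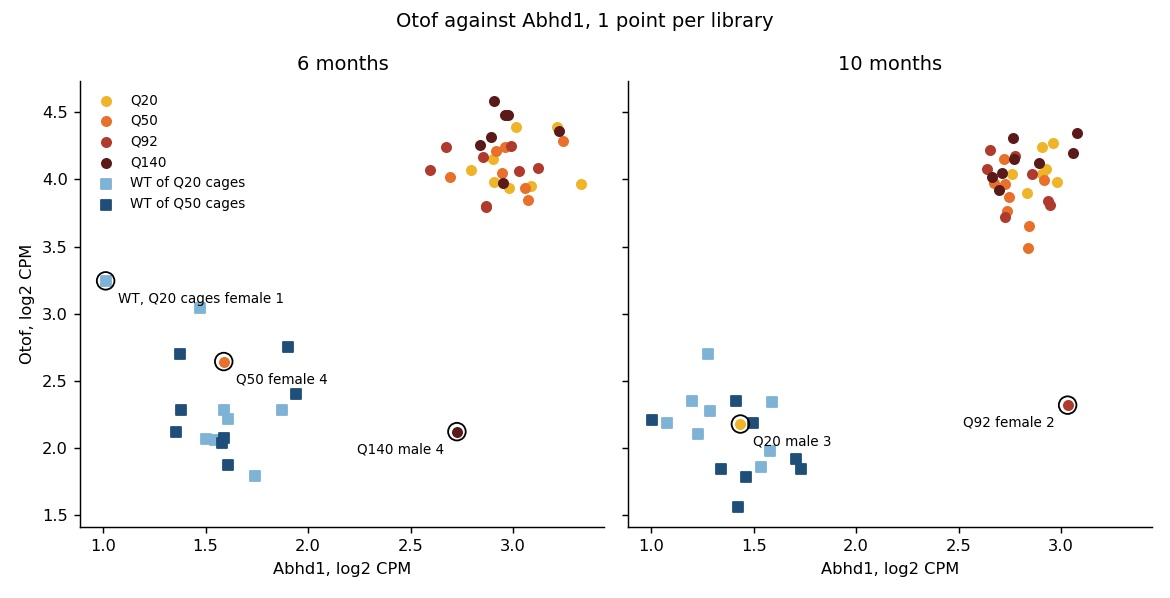
Log2 CPM of Otof (vertical axis) against log2 CPM of Abhd1 (horizontal axis) at 6 months (left) and 10 months (right), 1 point per library, with circles for knock-ins, squares for wild types and rings around the 5 libraries that went against their label. Q50 female 4 and Q20 male 3 lie among the wild types for both genes, while Q140 male 4 and Q92 female 2 lie at wild-type level on the Otof axis alone.

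Without these 5 libraries, the differences from wild type were 1.28 to 1.56 for Abhd1 and 1.79 to 2.05 for Otof over the 4 alleles and both ages. Some tests then passed. Otof in females minus males at 6 months was 0.26 ± 0.063 (adjusted p = 0.0307 by edgeR). Abhd1 at 10 minus 6 months was -0.14 ± 0.042 in knock-ins (adjusted p = 0.00885) and -0.205 ± 0.064 in wild types (adjusted p = 0.0223). The libraries were left out by the levels of these same genes, which narrows the spread these tests use.

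In knock-ins at both ages and in wild types at 6 months, the correlation of the genes within the class rested on such libraries. No wild type at 10 months went against its label. Across the 32 knock-in libraries at 6 months, Pearson's r of log2 CPM was 0.558 (permutation test, two-sided, p = 0.0248, adjusted p = 0.0873 over 4 relations) and Spearman's rho was 0.202 (permutation p = 0.263, adjusted p = 0.457). At 10 months r was 0.536 (permutation p = 0.0437, adjusted p = 0.0873) and rho was 0.155 (permutation p = 0.398, adjusted p = 0.457). Without the 2 libraries farthest from the median of Abhd1, r was 0.307 at 6 months and -0.263 at 10 months. Leaving out single libraries, r at 6 months was 0.258 without Q50 female 4 and 0.691 without Q140 male 4 (adjusted permutation p = 0.0427). At 10 months it was -0.168 without Q20 male 3 and 0.812 without Q92 female 2 (adjusted permutation p = 0.0259). Without all libraries against their label, r in knock-ins was 0.083 at 6 months and 0.17 at 10 months. Across the 16 wild types, r was -0.379 at 6 months (permutation p = 0.148, rho -0.20, rho's permutation p = 0.457) and -0.411 at 10 months (permutation p = 0.117, rho -0.435, rho's permutation p = 0.0918). The adjusted permutation p of r was 0.148 at both ages. Without the 1 wild type against its label, r in wild types at 6 months was -0.0016. Without the 2 farthest libraries the wild-type r was -0.068 at 6 months and -0.426 at 10 months.

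The deposited counts and FPKM together give the length over which fragments were counted, which shifts when other transcripts of a gene are used. For Otof it averaged 6750 ± 114 bases in knock-ins and 6809 ± 146 bases in wild types at 6 months (SD, n = 32 and 16), and 6701 ± 110 bases in knock-ins and 6804 ± 132 bases in wild types at 10 months. For Abhd1 it averaged 1321 ± 23.1 bases in knock-ins and 1332 ± 51.6 bases in wild types at 6 months, and 1325 ± 13.99 bases in knock-ins and 1338 ± 45.6 bases in wild types at 10 months. The differences were at most 1.52% of the wild-type length and lay within the SD of the wild types. That SD is the spread of single libraries and does not measure the error of a difference of means. The differences come from the contrast that chose the genes, so the permutation test run on them is not used here.

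Over all 96 libraries, Abhd1 and Otof were each other's most alike gene (Pearson's r = 0.882 of log2 CPM, a description over libraries that fall into 2 classes). Next for Abhd1 came Atraid (r = -0.541), Ppp1cb (-0.513), 5031410I06Rik (0.512) and Slc5a1 (-0.509). Next for Otof came Atraid (-0.614), Slc5a1 (-0.567), 5031410I06Rik (0.555) and Gm5067 (0.548). Slc5a1 encodes a sodium-glucose cotransporter and Ppp1cb a catalytic subunit of protein phosphatase 1. All lie on chromosome 5, between 1.60 and 8.75 Mb from Htt. Each of them overlapped between the classes, even without the libraries against their label. Those libraries were defined by the levels of Abhd1 and Otof, so the pair cannot be set against the other genes on this point. Atraid at 10 months ran from 36.7 to 47.6 CPM in knock-ins and from 43.7 to 54.5 CPM in wild types, and 5031410I06Rik averaged only 0.264 CPM.

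Genes beside the pair had differences near 0 at the median. Of 38 genes annotated within 250 kb of either gene, 28 were tested, where 0.0118% to 0.443% of all genes were called in the 8 comparisons. Against wild types of their own cages, 0 of 28 were called in Q20 at either age and in Q50 at 6 months. In Q50 at 10 months 1 was called, Atraid, which fell by 0.28 ± 0.05 (adjusted p = 0.00591 by edgeR). Atraid was also the 1 gene called in Q92 and in Q140 at 10 months, at -0.22 ± 0.05 (adjusted p = 0.0326) and -0.19 ± 0.05 (adjusted p = 0.0341). Where it was not called, Atraid was lower as well. Its Q20 difference was -0.23 ± 0.08 at 6 months and -0.20 ± 0.05 at 10 months. The longer alleles at 6 months had Atraid differences of -0.19 ± 0.08 (Q50), -0.29 ± 0.07 (Q92) and -0.25 ± 0.07 (Q140). The median difference of the 28 lay between -0.048 and 0.020 over the 8 comparisons, against -0.0090 to 0.0039 for all tested genes. The lowest single value was -0.76, for 1700001C02Rik in Q140 at 6 months, and was not called. The highest, 0.73 for the zinc transporter Slc30a3 in Q50 at 10 months, was below the 1.33 of Abhd1 in that comparison and was not called.

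Preb, a guanine nucleotide exchange factor of the endoplasmic reticulum that overlaps Abhd1 on the other strand, averaged 80.6 ± 4.92 CPM in knock-ins and 82.6 ± 5.49 CPM in wild types at 6 months (SD, n = 32 and 16). At 10 months it averaged 75.4 ± 4.34 CPM in knock-ins and 77.6 ± 2.69 CPM in wild types. It was not called in any of the 8 comparisons. Drc1, a ciliary dynein regulatory gene that ends 367 bases from Otof, averaged 1.87 ± 0.41 CPM in knock-ins and 1.74 ± 0.28 CPM in wild types at 6 months, with the classes overlapping.

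**Figure D4:**
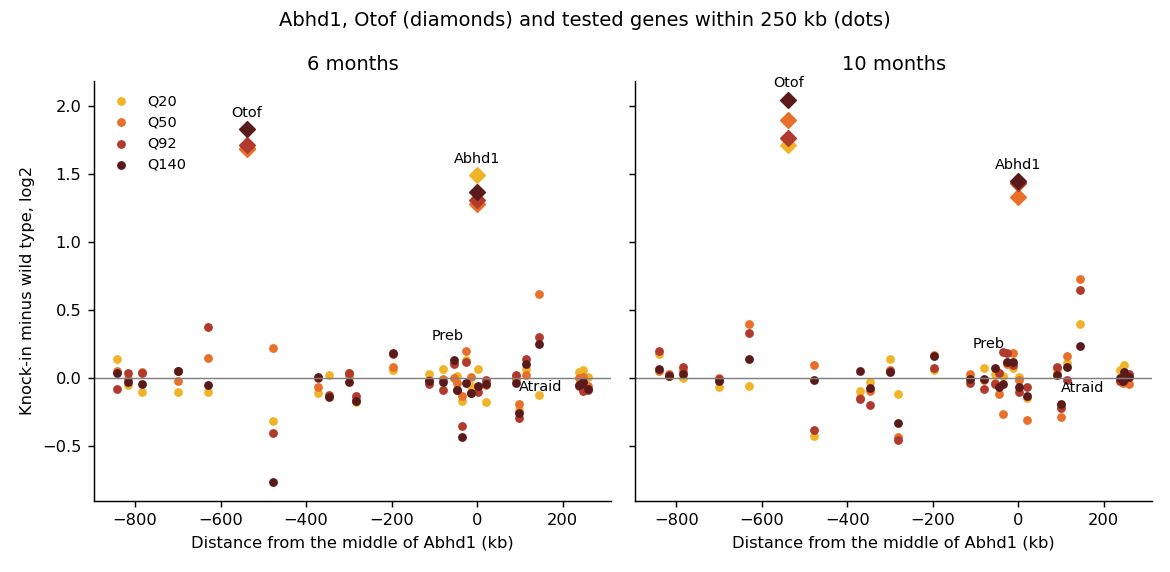
Log2 difference of each knock-in allele minus wild type for Abhd1 and Otof (diamonds) and for the 28 tested genes annotated within 250 kb of either (dots), by distance of the gene's middle from the middle of Abhd1 in kb, at 6 months (left) and 10 months (right). The pair lies between 1.28 and 2.05 and all neighbours lie between -0.76 and 0.73.

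Relatives and partners of both genes were measured as well. With 0.0118% to 0.443% of all genes called in the 8 comparisons with wild type, a count of 0 in lists of this size is near the background and is no result about them. Among genes of the alpha/beta hydrolase domain family, 18 of 20 were tested and 0 were called in any of the 8, with medians between -0.021 and 0.037. Abhd12, a lysophosphatidylserine lipase, had 0.0047 ± 0.034 in Q140 at 10 months and -0.017 ± 0.048 in Q20 at 6 months. Among the other ferlins, 3 of 5 were tested and 0 were called, with medians between -0.15 and 0.29. Dysf, which encodes the membrane repair protein dysferlin, had 0.060 ± 0.11 in Q140 at 10 months and -0.23 ± 0.14 in Q20 at 6 months.

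In the next lists as well, a count of 0 is near the background of 0.0118% to 0.443% of all genes and is no result about them. All 12 genes of calcium-triggered exocytosis were tested and 0 were called, with medians between -0.044 and 0.030. Snap25, a SNARE protein of the synaptic release machinery, had -0.032 ± 0.031 in Q140 at 10 months and 0.028 ± 0.036 in Q20 at 6 months. Of the 10 genes linked to otoferlin in inner hair cells, 6 were tested and 0 were called, with medians between -0.063 and 0.089. Cacna1d, the calcium channel subunit that triggers release there, had 0.027 ± 0.057 in Q140 at 10 months and 0.047 ± 0.081 in Q20 at 6 months. Hair cell markers (Slc17a8, Pou4f3, Tmc1 and Myo7a) summed to a median of 22.3 CPM in knock-ins and 22.8 CPM in wild types at 6 months, nearly all of it Myo7a.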

How the data were processed

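Both tables cover all 96 libraries and were deposited by the authors: estimated counts per gene (81.6% of values whole) and FPKM. CASAVA 1.8.2 is named in the submitters' processing notes. No source used here names the aligner, quantifier, build, annotation or strand setting. Ensembl IDs were matched to GENCODE M21, which named 37607 of 39179. Counts were rounded and fitted with edgeR 4.0.16 in R 4.3.3 (TMM factors, filterByExpr with a minimum count of 10 and total of 15, quasi-likelihood test, Benjamini-Hochberg over all genes, threshold 0.05). The fit within an age took 48 libraries, with a term for each genotype and cage and one for sex. Contrasts of age and of knock-in effects took all 96 with 24 group terms. SEs are the log2 difference divided by the square root of F. Log2 CPM used a prior count of 2, and correlations 100000 permutations. Alternatives used DESeq2 1.42.0 and limma 3.58.1 on log2(FPKM + 0.1) and log2(FPKM + 1), among others. Tests were checked on simulated data. The effective length is the count divided by FPKM and a library constant (the median over 1137 genes). The permutation test planned for it was run but is not used, because the genes were chosen on the same contrast. Members, lists and tests were chosen with earlier results of these data known. Genes named are both members, Htt, the 5 most alike genes of each, Preb, called genes within 250 kb, and up to 6 genes of each list by highest FPKM. Drc1 and Slc30a3 were named after their values were seen. Xist, Ddx3y and marker genes served as checks.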

Additional observations from a re-analysis of the deposited data

Results flagged for a closer look

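In groups of 4 libraries, a library was singled out where its gap to the nearest other exceeded 0.829 of the group's whole range. Over the 24 groups and both genes, which makes 48 tests, 2 had such a library, where chance gives about 1 in 20. Otof in Q50 female 4 at 6 months had 6.19 CPM, against 18.5 to 19.4 CPM in the other 3 females of that group. Abhd1 in Q50 male 4 at 10 months had 7.13 CPM, against 6.54 to 6.59 CPM in the other 3 males, a library well inside the knock-in range.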

How the results depend on the processing

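Over 316 alternative values of the tested comparisons, 299 kept their direction and side of the threshold. With DESeq2 (lowest adjusted p 0.095) and with RLE factors (lowest 0.10) no sign turned and nothing was called. With the replicate block the differences from wild type were 1.28 to 1.49 for Abhd1 and 1.68 to 2.05 for Otof, and the lowest adjusted p of a test was 0.11, so it changed no call. Libraries that share a number deviated from their groups with a mean correlation of 0.02 over 240 pairs, against -0.0052 over 720 pairs of other numbers, so the numbers do not pair them. With log2(FPKM + 1) the differences from wild type were smaller, as the pseudocount is near the level of both genes in wild types: for Abhd1 they were 1.19 for Q20, 0.96 for Q50, 1.02 for Q92 and 1.08 for Q140 at 6 months, and 1.07 for Q20, 1.02 for Q50, 1.095 for Q92 and 1.12 for Q140 at 10 months, and for Otof they were 1.001 for Q20, 0.92 for Q50, 0.98 for Q92 and 1.04 for Q140 at 6 months, and 0.93 for Q20, 1.02 for Q50, 0.92 for Q92 and 1.16 for Q140 at 10 months.

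Signs turned as follows, and the cause was not tested. With a covariate for the L token in library names, Abhd1 at 6 months had a CAG slope of 0.029, Q140 minus Q20 of 0.0099 and wild types of Q50 minus Q20 cages of -0.12, Abhd1 in Q50 minus Q20 at 10 months was -0.041, the Q50 minus Q20 effect of Otof at 6 months was 0.065, and Otof in Q92 minus Q20 at 10 months was 0.0015. With log2(FPKM + 0.1), Otof in Q140 minus Q20 at 6 months was -0.022 and in Q50 minus Q20 at 10 months 0.033. Without the filter, Abhd1 in Q50 minus Q20 at 10 months was -0.0040. Without the libraries against their label, Abhd1 in wild types of Q50 minus Q20 cages at 6 months was -0.030, and at 10 months its CAG slope was -0.028, Q140 minus Q20 -0.057, Q92 minus Q20 -0.099 and Q50 minus Q20 -0.12. The 3 tests called in that setting (0.26, -0.14 and -0.205) are given above. Without the libraries against their label the correlation in wild types at 6 months was -0.0016. The correlation in knock-ins at 10 months was -0.26 without the 2 libraries farthest from the median of Abhd1.

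Leaving out each library in turn, the differences from wild type stayed between 1.22 and 1.56 for Abhd1 and between 1.64 and 2.09 for Otof. Abhd1 at 10 minus 6 months in knock-ins ranged from -0.17 to -0.10 and was called only without Q50 female 4 at 6 months (adjusted p 0.014). The correlation in knock-ins ranged from 0.26 to 0.69 at 6 months, and passed only without Q140 male 4 (0.69, adjusted p 0.043). At 10 months it ranged from -0.17 to 0.81, and passed only without Q92 female 2 (0.81, adjusted p 0.026). Signs also turned within the ranges of Abhd1 at 10 months for the CAG slope (-0.021 to 0.084), Q140 minus Q20 (-0.057 to 0.097), Q92 minus Q20 (-0.067 to 0.085) and Q50 minus Q20 (-0.12 to 0.036), and of its wild types of Q50 minus Q20 cages at 6 months (-0.029 to 0.10). For Otof they turned for the Q50 minus Q20 effect at 6 months (-0.14 to 0.12), Q92 minus Q20 at 6 months (-0.091 to 0.012) and at 10 months (-0.22 to 0.053) and female minus male at 10 months (-0.012 to 0.093). Abhd1 was measured on 66.2 to 390 counts a library and Otof on 106 to 853, which limits what a single library can show.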
